A study of Mus musculus with 8 samples.

Results

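The proteasome is the protease complex that breaks down proteins tagged with ubiquitin. The genes of its subunits were compared here in satellite cells (SCs), the muscle stem cells, of control and of exercise mice. The members were the protein-coding genes of the expression table whose symbol starts with Psm, followed by a letter from a to g and a digit. This rule took 50 of 52636 rows. They fall into the core particle (Psma and Psmb, 19 genes), the ATPases (Psmc, 7 genes), the lid and base (Psmd, 14 genes) and the activators, inhibitor and assembly factors (Psme, Psmf and Psmg, 10 genes). A further 4 rows carry such a symbol but are not protein coding, and none of them had a read. Psmc3ip meets the rule by its name alone, since its product acts in meiotic recombination and is no proteasome subunit, and it had no read either.

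The mice were male C57B/6J animals, 10 weeks old. Control mice were sedentary. Exercise mice trained on a treadmill over 4 weeks, on 4 days a week, with 30 min a day at a speed of 12 m/min. About 800 SCs were sorted from tibialis anterior muscle for each of 4 control and 4 exercise libraries, as CD45-, CD11b-, CD31- and Sca1- cells that carried CD34 and integrin α7, and their mRNA was amplified with a library kit for single cells. The labels do not say whether the libraries of a group came from separate mice. The study describes them as such, but some were more alike than others, as given below, and a p-value measures only the spread between these libraries.

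The core particle is a barrel of stacked rings. The outer rings of alpha subunits form the gate through which a substrate enters, and the inner rings of beta subunits hold the cutting sites. A regulatory particle sits on the barrel. Its base, with a ring of ATPases, unfolds the substrate, and its lid takes off the ubiquitin. Assembly chaperones build the rings and leave the finished complex, and activators can replace the regulatory particle on the barrel. In muscle the pathway is best known for the loss of protein in wasting fibres. In stem cells it is known for the turnover of cell cycle and fate regulators.

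Before the values are given, some facts of the libraries need to be stated. Reads on genes numbered 2339966 to 3013354 in control and 1011737 to 1200221 in exercise libraries. Mitochondrial transcripts made up 50.2% of reads in exercise 3 and 68.7% in exercise 4, against 2.09% to 15.3% in the other 6 libraries. Exercise 1 and exercise 2 were far more alike than any other pair of a group, since chi-square divided by its degrees of freedom was 3.86 for them and 82.6 to 711 elsewhere. Read shares in control 4 were close to 0.280 of control 1 plus 0.714 of control 3, and those of exercise 3 to 0.298 of exercise 1 plus 0.679 of exercise 4, with weights taken from genes that are no members. Some of the 8 libraries may therefore not be separate samples, so the calls of members are also given after averaging exercise 1 and 2, and after further leaving out control 4 and exercise 3.

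The labelled cell type was checked against its markers. Of 12 SC markers, Pax7, Itga7, Cdh15, Calcr and Megf10 had no read in any library. Myf5, Myod1, Vcam1, Chodl and Cxcr4 had reads in controls alone. The summed level of the list was 19.9 to 41.5 FPKM in controls and 31.9 to 83.6 FPKM in exercise libraries, where it came from Cd34 and Sdc4 only. FPKM is the number of reads divided by the gene's length and by a library size. The library size here differed from the read total and was taken to be a size factor already scaled between libraries. The 14 myofibre markers summed to 36447 to 76347 FPKM in controls and 20182 to 60738 FPKM in exercise libraries. The cells are called SCs after their label, and the part of RNA from other cells in the results below was not tested. In such bulk samples, fewer cells of a type and less RNA per cell cannot be told apart.

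Reads on members were found in fewer genes of the exercise libraries. Of the 50 members, 37, 33, 35 and 40 had a read in controls 1 to 4, and 22, 24, 27 and 18 in exercise 1 to 4. Every control library thus held more members than any exercise library. At the total reads of the shallowest library, 35.0, 29.9, 33.4 and 39.5 members would be found in controls 1 to 4 and 21.8, 24.0, 26.2 and 17.7 in exercise 1 to 4. Since mitochondrial reads took much of exercise 3 and 4, the number was also computed at 362038 reads outside mitochondrial genes, those of exercise 4, a comparison chosen after the data were seen. It was then 32.0, 27.3, 32.2 and 37.7 in controls and 18.4, 21.3, 24.8 and 18 in exercise libraries, and the groups did not overlap at either depth. Detection of all protein-coding genes also differed, at 20.5% to 29.2% of 22027 genes in controls and 9.16% to 13.1% in exercise libraries. Members were found more often than protein-coding genes at large in each library, with 66% to 80% in controls and 36% to 54% in exercise libraries.

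The share of reads on members was also lower. Members took 0.309%, 0.732%, 0.626% and 0.552% of all reads in controls 1 to 4, and 0.137%, 0.131%, 0.0928% and 0.0875% in exercise 1 to 4. Without mitochondrial reads, the shares were 0.316%, 0.824%, 0.740% and 0.627% in controls and 0.149%, 0.142%, 0.186% and 0.279% in exercise libraries. The groups did not overlap in either share, but the gap between control 1 and exercise 4 was small in the latter. Psme2, an activator subunit, took 47.3%, 36.8% and 30.4% of the member reads in controls 2 to 4, while Psmd5 led control 1 with 21.3%. Psma1 led exercise 1 with 19.6%, Psme2 led exercise 2 with 18.6%, and Psma2 led exercise 3 and exercise 4 with 38.7% and 65.5%. Without Psme2 and its near-copy Psme2b, a choice also made after the data were seen, the other 48 members took 0.316%, 0.363%, 0.419% and 0.3997% of the reads outside mitochondrial genes in controls and 0.127%, 0.113%, 0.173% and 0.278% in exercise libraries. The groups again did not overlap, and the gap between control 1 and exercise 4 was again small.

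**Figure D1:**
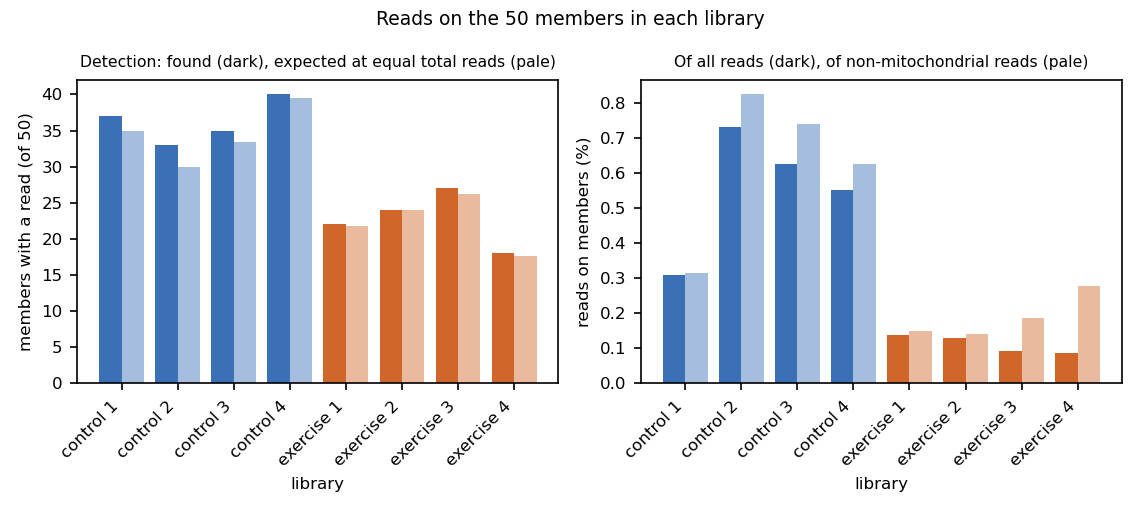
Reads on the 50 proteasome members in each of the 8 libraries. The left panel gives the number of members with at least 1 read, as found (dark bars) and as computed for the total reads of the shallowest library (pale bars). The right panel gives the percent of all reads (dark bars) and of reads outside mitochondrial genes (pale bars) that fell on members, with controls in blue and exercise in orange. All 4 exercise libraries held 18 to 27 members, below the 33 to 40 of the controls.

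Of the 50 members, 43 had a read in at least 1 library. Psma8, Psmb10, Psmb11, Psmc3ip, Psmc5, Psmf1 and Psmg2 had none. Psmc5, an ATPase, belongs to every regulatory particle, so a gene listed at 0 in these data need not be silent. A further 9 members with reads, Psma5, Psmb8, Psmb9, Psmd1, Psmd3, Psmd9, Psmd10, Psme4 and Psmg3, had a mean under 1 FPKM over the 8 libraries and were not tested. The remaining 34 were tested with limma on log2(FPKM + 1), together with all other genes at a mean of at least 1 FPKM. A fold change on this scale understates the change of low genes. A member could pass this filter through its high group alone.

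Of the 34 tested members, 11 were lower and 1 was higher in exercise libraries at an adjusted p under 0.05. The 11 lower members make 32.4% of those tested, and 26.8% of all 4328 genes tested were lower, so this share was near the background. The 1 higher member makes 2.94%, with 8.78% of all genes higher. After quantile normalization, 4 members were lower and 3 were higher, and over all genes 8.66% were lower and 13.1% higher. The median log2 fold change was -2.23 over the tested members and -1.42 over all genes tested, and it was negative for 25 of 34 members (73.5%) and for 68.3% of all genes. With a count of 0 taken as 0 FPKM, the groups did not overlap for 9 members, all lower in exercise. Counted in the same way, 24.0% of all genes tested were lower and 7.62% higher without overlap. Of the tested members, 7 had no read in any exercise library, which is 20.6%, with 30.4% among all genes tested.

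With exercise 1 and 2 averaged, 3 members were lower, namely Psmb1, Psmd7 and Psmg1, and 0 were higher by limma, with 9.80% of all genes lower and 4.14% higher. With control 4 and exercise 3 left out as well, limma called 0 members and 0 of 4328 genes, so no call of a gene in the text holds in that fit. That fit kept controls 1 to 3, exercise 4 and the mean of exercise 1 and 2. In it the same 3 of 34 members, all lower, had an unadjusted limma p under 0.05. So had 317 lower and 134 higher of all 4328 genes tested, so the share of lower members was near that of all genes. Some members without a call passed under other settings, Psma7, Psmb5, Psmc3, Psmd8 and Psmd13 with a constant FPKM sum, the read total as library size, array quality weights and voom, and Psma1 and Psmg4 with quantile normalization and array quality weights.

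**Figure D2:**
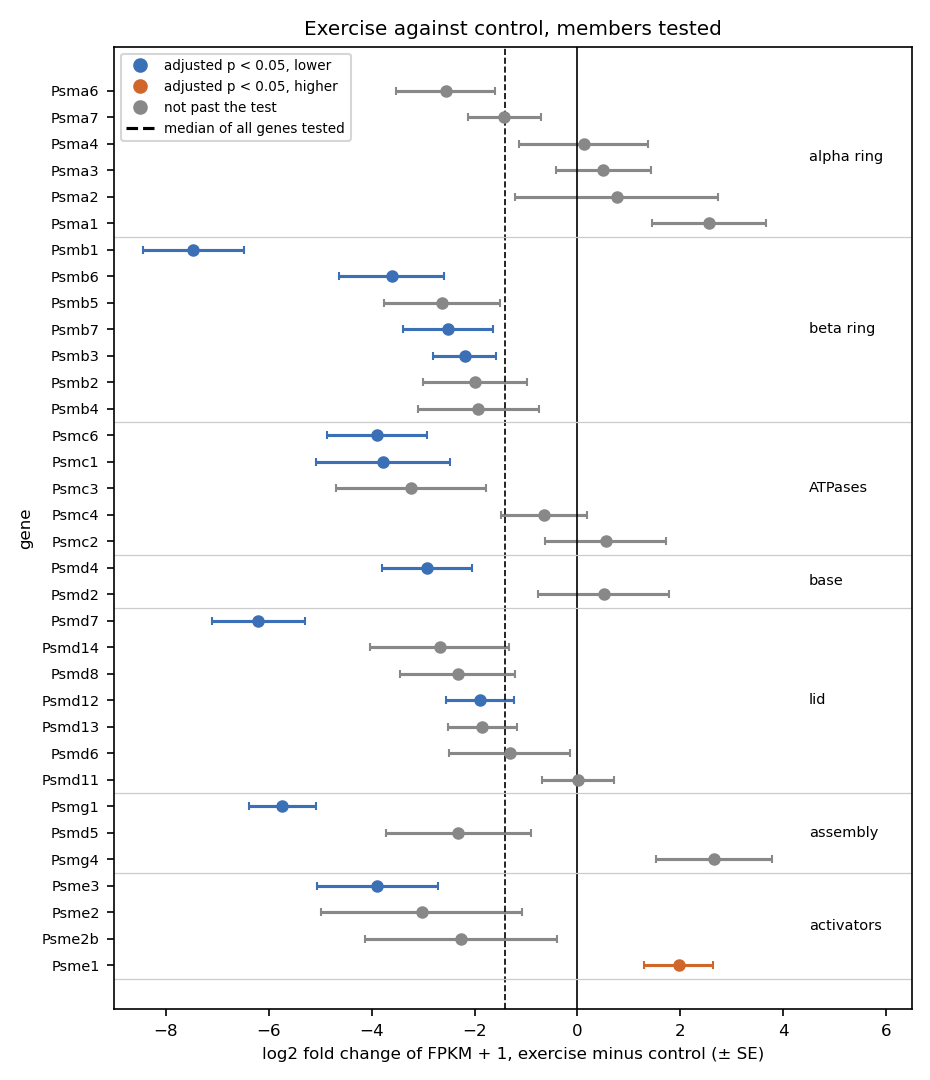
Log2 fold change of FPKM + 1, exercise minus control, for the 34 members tested, ordered by role. Points are estimates from 4 control and 4 exercise libraries, bars are ± 1 standard error, and colours mark an adjusted p under 0.05. The dashed line is the median of all genes tested, at -1.42. All 7 constitutive beta subunits lie below 0, while the 6 alpha subunits tested lie on both sides of it.

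The subunits of the alpha ring gave no call. Of the 7 alpha subunits with reads, 6 were tested and none passed the test, with 26.8% of all genes tested lower and 8.78% higher. Their median log2 fold change was 0.31, with -1.42 over all genes tested, and this difference was not tested. Psma1 had 38.4, 0, 2.17 and 9.10 FPKM in controls 1 to 4 and 57.7, 47.1, 24.4 and 19.98 FPKM in exercise 1 to 4. Its level in control 1 lay among the exercise values, so the groups overlapped (log2 fold change 2.56 ± 1.10 SE, adjusted p = 0.0897), and the test was passed only without control 1 among fits that left out 1 library (adjusted p = 0.0133). Psma6 had 207, 18.5, 63.9 and 98.8 FPKM in controls and 24.2, 24.4, 8.04 and 2.81 FPKM in exercise libraries. Control 2 lay below exercise 1 and 2, and the difference did not pass the test (log2 fold change -2.56 ± 0.96, adjusted p = 0.0596) except without control 2 (adjusted p = 0.0408) and with array quality weights (adjusted p = 0.0289). Psma2 took the highest value of any member in an exercise library, with 106 and 625 FPKM in exercise 3 and 4, although exercise 1 and 2 had no read of it. Controls had 18.6, 11.4, 4.19 and 5.47 FPKM of Psma2. The exercise libraries thus spread on both sides of the controls, and the fold change of 0.76 changed sign when exercise 3 (-0.15) or exercise 4 (-1.002) was left out. Psma4 likewise had 33.7 FPKM in exercise 4 and at most 0.761 FPKM in the other exercise libraries. Psma3 and Psma7 had log2 fold changes of 0.50 and -1.42, of which that of Psma7 passed the test without exercise 4 (adjusted p = 0.0340). Psma5, under the filter, had 27 reads in all.

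Of the constitutive beta ring, 4 of 7 subunits (57.1%) were lower in exercise libraries, with 26.8% of all genes tested lower, and its difference from other roles was not tested. All 7 were tested and had a negative fold change, as had 68.3% of all genes, and their median was -2.52 on the log2 scale. The fold changes of all 7 stayed negative under each alternative setting that tested them. The cutting sites lie in Psmb6 (after acidic residues), Psmb7 (after basic residues) and Psmb5 (after hydrophobic residues), and the other 4 subunits have no active site.

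Psmb1, a beta subunit without an active site, had the largest fold change of the tested members on the log2(FPKM + 1) scale, although voom on the recovered reads gave -8.47 for it and -8.79 for the lid subunit Psmd7. The gene lies at chr17:15475721-15498276 (GRCm38, minus strand). It had 36.6, 749, 478 and 295 FPKM in controls 1 to 4 and 0, 1.21, 0.871 and 0 FPKM in exercise 1 to 4. Every control was at least 30 times the exercise values that had reads, although control 1 stood well below the other 3. If a count of 0 allows 3 reads, the limits were 1.73 FPKM in exercise 1 and 10.05 FPKM in exercise 4. Control 1 was above both limits, but by less than 30 times. The log2 fold change was -7.46 ± 0.98 (adjusted p = 0.00109, exact permutation p = 0.0286, the smallest that 4 libraries against 4 allow). Only 3 reads fell on Psmb1 in the exercise libraries together, and the ratio of control to exercise, from reads per unit of library size, was 659 with an exact 95% interval of 225 to 3195. The ratio was 423 without exercise 1 and 1300.2 without exercise 2. Like all intervals and limits here, it covers counting error alone, because reads after amplification do not each stand for a molecule. The call held in each fit that left out 1 library and with exercise 1 and 2 averaged (adjusted p = 0.0056), and was lost with control 4 and exercise 3 left out as well (adjusted p = 0.180).

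Of the catalytic subunits, Psmb6 had 4.19, 2.44, 61.9 and 44.2 FPKM in controls and 1.28, 0, 0 and 0 FPKM in exercise libraries. With a count of 0 taken as 0 FPKM, all controls were higher than all exercise libraries, with a gap of more than 10 times between control 2 and control 3 (log2 fold change -3.61 ± 1.03, adjusted p = 0.0291, exact permutation p = 0.0286). If a count of 0 allows 3 reads, Psmb6 could reach 5.56 FPKM in exercise 4. That is above control 1 and control 2, so exercise 4 was not told apart from them. Psmb7 had 29.1, 1.15, 0.899 and 7.78 FPKM in controls and no read in any exercise library. Control 2 and 3 lay within the range of the limits that a count of 0 sets in exercise libraries, 0.524 to 3.04 FPKM. Taking 3 reads in each exercise library as the limit that a count of 0 allows, the mean of Psmb7 was at least 7.92-fold lower in exercise libraries (log2 fold change -2.52 ± 0.87, adjusted p = 0.0484, exact permutation p = 0.0286). Without control 1 this bound was 2.67, and without exercise 4, whose limits were the highest, each such bound on a lower member was 1.97 times as high. Psmb5 had 10.01, 11.6, 40.9 and 28.8 FPKM in controls and 0, 0, 3.11 and 27.9 FPKM in exercise libraries. Exercise 4 lay among the controls, and the difference did not pass the test (log2 fold change -2.63 ± 1.13, adjusted p = 0.0890), although it passed with exercise 4 left out (adjusted p = 0.0101). Of the 75-base stretches of Psmb5, 36.8% also occur in other genes, mostly in Gm3375, which had 7 reads in all.

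Psmb3, another beta subunit without an active site, had low and even values, with 10.05, 3.98, 6.24 and 5.78 FPKM in controls and 0.520, 1.91, 0.392 and 0 FPKM in exercise libraries. With a count of 0 taken as 0 FPKM, the groups did not overlap, and the mean of the controls was 9.24 times that of the exercise libraries, and 21.4 times without exercise 2 (log2 fold change -2.19 ± 0.61, adjusted p = 0.0276, exact permutation p = 0.0286). The limit of the count of 0 in exercise 4 was 4.53 FPKM, above control 2, so exercise 4 was not told apart from it. Without exercise 4 the ratio was 6.93. Psmb2 and Psmb4 had fold changes of -1.99 and -1.92 on the log2 scale, with adjusted p-values of 0.134 and 0.194. Without control 1, control 2 or exercise 4, Psmb3 kept its call, and it did so without exercise 2, but not without control 3, control 4, exercise 1 or exercise 3 (adjusted p of 0.0671 to 0.0846). Psmb6 kept its call without control 1 or control 2, and Psmb7 without control 1, 2 or 3, while leaving out any other library gave adjusted p-values of 0.0545 to 0.0877 for Psmb6 and of 0.0826 to 0.123 for Psmb7. With exercise 1 and 2 averaged, the adjusted p of Psmb3, Psmb6 and Psmb7 was 0.0648, 0.0662 and 0.0992.

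Immune counterparts replace the catalytic subunits after interferon signalling, Psmb8 in place of Psmb5, Psmb9 in place of Psmb6 and Psmb10 in place of Psmb7. All 3 were under the filter and were not tested. Psmb8 had no read in any control and 0.437, 0.916, 0.330 and 0 FPKM in exercise 1 to 4, from 2, 4, 1 and 0 reads. Psmb9 had 3.93, 0, 0 and 0.617 FPKM in controls, from 33, 0, 0 and 9 reads, and no read in exercise libraries. Its reads thus lay in control 1 and 4 alone. Psmb10 had no read in any of the 8 libraries. Of 14 genes of interferon signalling and antigen processing, 9 had reads, 4 were tested, and 1 was lower in exercise libraries, with 26.8% of all genes tested lower. This was Gbp2, a GTPase induced by interferon (log2 fold change -3.35 ± 1.04, adjusted p = 0.0358), which had no read in control 1.

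**Figure D3:**
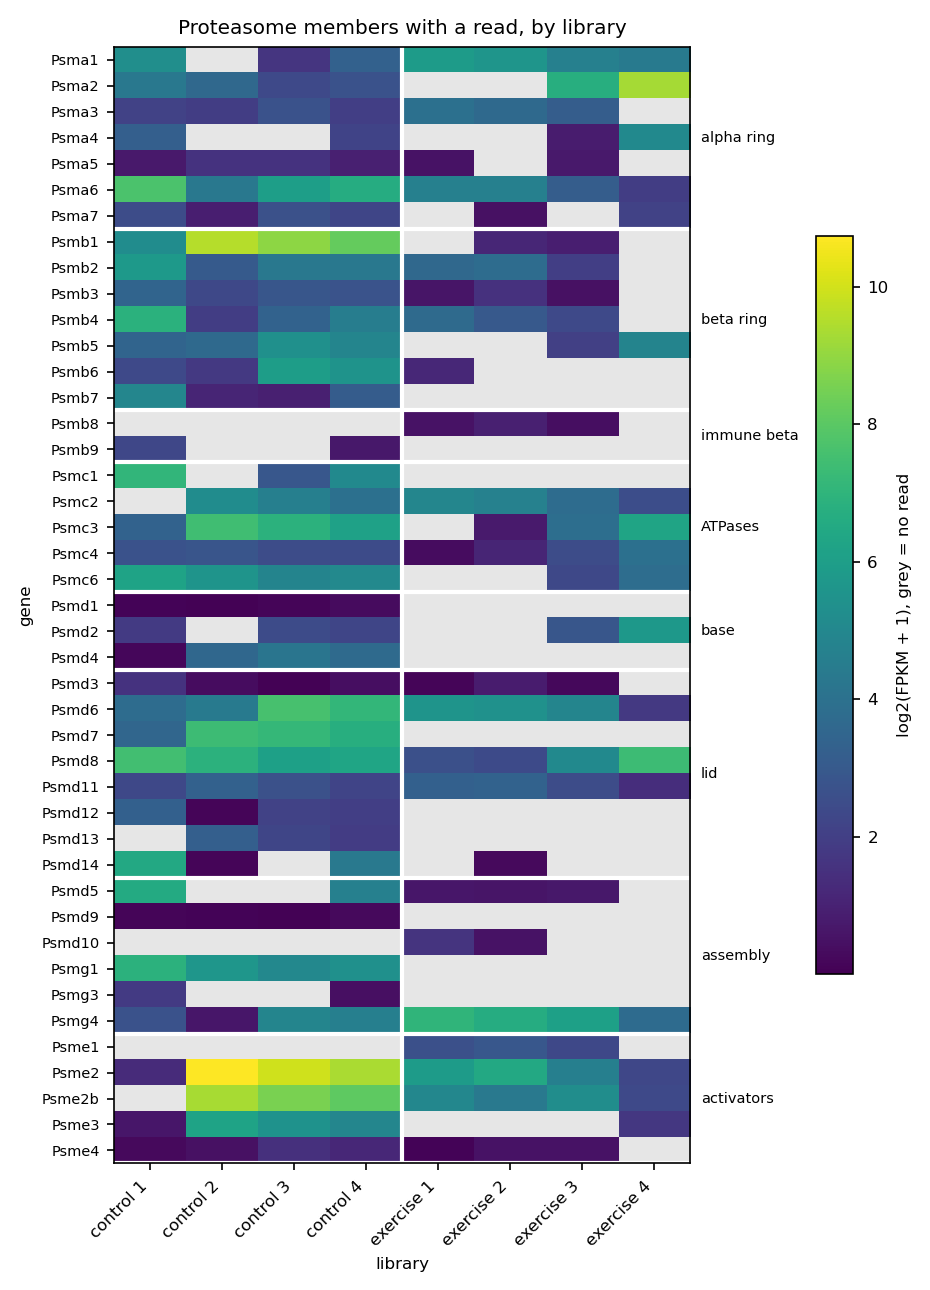
Level of the 43 members with a read in each of the 8 libraries, as log2(FPKM + 1) in colour, with grey for no read. Rows are grouped by role and columns are the 4 control and 4 exercise libraries. Grey cells are more frequent in the exercise columns, and control 1 differs from controls 2 and 3 in many rows, among them Psme2, Psmd14 and Psmd5.

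The ATPase ring had 5 members with reads, all tested, of which 2 (40%) were lower in exercise libraries, with 26.8% of all genes tested lower. Its median log2 fold change was -3.23, with -1.42 over all genes tested, and its difference from other genes was not tested. Psmc6 had 73.3, 46.4, 28.2 and 32.7 FPKM in controls 1 to 4 and 0, 0, 4.04 and 13.3 FPKM in exercise 1 to 4. Its controls were within 3 times of each other and all above the exercise libraries, among which exercise 4 was the highest (log2 fold change -3.89 ± 0.97, adjusted p = 0.0174, exact permutation p = 0.0286). Psmc1 had 132, 0, 6.63 and 33.6 FPKM in controls and no read in exercise libraries. Control 2 also had no read of it, so the groups overlapped, and the exact permutation p was 0.143 beside an adjusted p of 0.0475 (log2 fold change -3.78 ± 1.30). The mean of the controls was at least 19.9 times the limit that a count of 0 sets in exercise libraries, and at least 6.18 times without control 1.

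Psmc3 and Psmc4 gave no call. Psmc3 had 9.53, 172, 117 and 70.6 FPKM in controls and 0, 0.721, 13.8 and 77.2 FPKM in exercise libraries, with exercise 4 above control 4 (log2 fold change -3.23 ± 1.46, adjusted p = 0.103). Of its 75-base stretches, 2.60% also occur, read on either strand, in Slc39a13, a gene on the other strand with 1385 reads. Psmc4 was the steadiest ATPase in controls, with 5.44, 6.19, 4.62 and 4.53 FPKM, and had 0.276, 1.16, 4.59 and 14.4 FPKM in exercise libraries. Exercise 3 lay among the controls and exercise 4 above them (log2 fold change -0.65 ± 0.84, adjusted p = 0.528). Psmc2 had 0 FPKM in control 1 alone and 4.83 to 36.5 FPKM in the other 7 libraries. Psmc6 lost its call without exercise 1 or exercise 2 (adjusted p = 0.0598 in both), and Psmc1 lost it without any library other than control 2 (adjusted p of 0.0752 to 0.124). With exercise 1 and 2 averaged the adjusted p was 0.0598 for Psmc6 and 0.0936 for Psmc1. Psmc3 passed the test without exercise 4 (adjusted p = 0.0343).

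The base also holds the scaffold subunits Psmd1 and Psmd2 and the ubiquitin receptor Psmd4. Psmd4 had 0.155, 11.0, 17.1 and 12.1 FPKM in controls and no read in exercise libraries. Control 1, with 1 read, was far below the other controls and under the limits that a count of 0 sets in exercise libraries (0.639 to 3.71 FPKM), so the separation of the groups rests on that read. The mean of the controls was at least 6.74 times that limit (log2 fold change -2.92 ± 0.87, adjusted p = 0.0327, exact permutation p = 0.0286). Psmd2 had no read in control 2 or in exercise 1 and 2 but reached 51.6 FPKM in exercise 4 (log2 fold change 0.51), and its fold change turned negative without control 2 (-0.03) or exercise 4 (-0.68). The call of Psmd4 was kept only without control 1 among fits that left out 1 library (adjusted p of 0.0581 to 0.0953 in the others), and it was lost with exercise 1 and 2 averaged (adjusted p = 0.0780).

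In the lid, 7 of 8 subunits were tested and 2 (28.6%) were lower in exercise libraries, which is near the 26.8% of all genes tested. Psmd7, which pairs with the deubiquitinase Psmd14 at the centre of the lid, lies at chr8:107580381-107588464 (GRCm38, minus strand). It had 10.6, 162, 143 and 106 FPKM in controls 1 to 4, from 55 to 1258 reads, and no read in exercise 1 to 4. All controls were above the limits of 0.794 to 4.604 FPKM that a count of 0 sets in exercise libraries, and their mean was at least 56.7 times that limit (log2 fold change -6.20 ± 0.91, adjusted p = 0.00174, exact permutation p = 0.0286). The call held in each fit that left out 1 library and with exercise 1 and 2 averaged (adjusted p = 0.0085), but not with control 4 and exercise 3 left out as well (adjusted p = 0.270).

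Psmd14, which cuts the ubiquitin chain from the substrate, had 88.3, 0.116, 0 and 19.5 FPKM in controls and 0, 0.222, 0 and 0 FPKM in exercise libraries. It was high in the libraries where its partner Psmd7 was lowest among controls and near 0 in control 2 and 3, where Psmd7 was highest. Its groups overlapped and it did not pass the test (log2 fold change -2.68 ± 1.35, adjusted p = 0.133), although the ratio of control to exercise reads, from 1 exercise read, was 279 (exact 95% interval 49.9 to 11018), with 93.7 without control 1 and 179 without exercise 1. Psmd12 had 8.89, 0.123, 3.29 and 3.03 FPKM in controls and no read in exercise libraries. Its value in control 2 came from 1 read, the mean of the controls was at least 2.42 times the limit in exercise libraries (1.36 times without control 1), and the call was near the threshold (log2 fold change -1.90 ± 0.66, adjusted p = 0.0481, exact permutation p = 0.0286). It was kept only without control 2 (adjusted p of 0.0522 to 0.118 without another library), and it was lost with exercise 1 and 2 averaged (adjusted p = 0.102).

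Psmd8, a lid subunit added late in assembly, had 181, 118, 67.0 and 79.5 FPKM in controls and 5.09, 4.31, 33.3 and 166 FPKM in exercise libraries. Exercise 1 and 2 were the lowest and exercise 4 was the second highest of all 8 libraries (log2 fold change -2.33 ± 1.11, adjusted p = 0.1199), and the test was passed without exercise 4 (adjusted p = 0.0146). Psmd13 had no read in control 1 or in any exercise library (adjusted p = 0.0541, and 0.0015 without control 1), and shares its place with Sirt3 on the other strand. Psmd6 and Psmd11 had a log2 fold change of -1.32 (adjusted p = 0.364) and of 0.02. Psmd3 stayed under the filter, at 0.0516 to 2.02 FPKM in controls and 0 to 0.757 FPKM in exercise libraries.

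Of 7 assembly chaperones, 3 were tested and 1 (33.3%) was lower in exercise libraries, with 26.8% of all genes tested lower. Psmg1, which joins with Psmg2 to line up the alpha subunits, lies at chr16:95979933-95990960 (GRCm38, minus strand). It had 118, 49.3, 30.9 and 40.9 FPKM in controls, from 162 to 364 reads, and no read in exercise libraries. All controls were above the limits of 1.33 to 7.75 FPKM that a count of 0 sets in exercise libraries, and their mean was at least 19.1 times that limit (log2 fold change -5.73 ± 0.66, adjusted p = 0.000670, exact permutation p = 0.0286). This was the lowest adjusted p among members. The call held in each fit that left out 1 library and with exercise 1 and 2 averaged (adjusted p = 0.0042), but not with control 4 and exercise 3 left out as well (adjusted p = 0.20002). Its partner Psmg2 had no read in any library.

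The other chaperone pair of the alpha ring is Psmg3 with Psmg4. Psmg4 had 5.50, 0.588, 28.6 and 24.0 FPKM in controls and 128, 99.4, 68.3 and 12.5 FPKM in exercise libraries. Exercise 1 to 3 were above every control and exercise 4 was below control 3 and 4 (log2 fold change 2.66 ± 1.13, adjusted p = 0.0854), and the test was passed without exercise 4 (adjusted p = 0.0457). Psmg3 had 2.56, 0, 0 and 0.347 FPKM in controls and no read in exercise libraries. Psmd5, a chaperone of the base, had 92.9, 0, 0 and 24.3 FPKM in controls and 0.579, 0.520, 0.624 and 0 FPKM in exercise libraries. Control 2 and 3 were thus at 0 beside the highest controls, and the difference did not pass the test (log2 fold change -2.31, adjusted p = 0.191). Psmd9 and Psmd10, the other base chaperones, had at most 6 reads in a library.

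Activators that bind the barrel in place of the regulatory particle held the 1 higher member. Psme1 and Psme2 form a mixed ring that is known for its part in antigen processing. Psme1 had no read in any control and 5.14, 6.53, 4.08 and 0 FPKM in exercise 1 to 4, from 19, 23, 10 and 0 reads. Exercise 1 to 3 were all above the limits of 0.341 to 0.592 FPKM that a count of 0 sets in controls, while exercise 4 was not told apart from the controls, and the mean of the exercise libraries was at least 9.14 times that limit (log2 fold change 1.97 ± 0.67, adjusted p = 0.0462, exact permutation p = 0.143). The call was kept only without exercise 4 among fits that left out 1 library (adjusted p of 0.0576 to 0.118 in the others), and it was lost with exercise 1 and 2 averaged (adjusted p = 0.101).

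Its partner Psme2 was high in 3 of 4 controls. Psme2 had 1.48, 1710, 1007 and 667 FPKM in controls 1 to 4 and 58.0, 87.4, 24.0 and 3.93 FPKM in exercise 1 to 4. Control 1 was below every exercise library while the other 3 controls were above all of them, and the difference did not pass the test (log2 fold change -3.03 ± 1.95, adjusted p = 0.213) except without control 1 (adjusted p = 0.0052) and with array quality weights (adjusted p = 0.00064). Psme2b, a near-copy of Psme2, had 0, 652, 381 and 268 FPKM in controls and 30.0, 19.5, 37.7 and 4.15 FPKM in exercise libraries. It followed the order of Psme2 in controls, passed the test without control 1 (adjusted p = 0.0037) and with array quality weights (adjusted p = 0.00029), and 60.2% of its 75-base stretches also occur in Psme2. There were 0.181, 0.179 and 0.190 reads of Psme2b for each read of Psme2 in controls 2 to 4, and 0.246, 0.106 and 0.745 in exercise 1 to 3, where Psme2b had 42, 26 and 35 reads. The ratio was thus even in these controls and uneven in the exercise libraries, and since the genes share sequence, the values of Psme2b are uncertain.

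Psme3, the activator of the nucleus, had 0.591, 74.7, 43.6 and 29.3 FPKM in controls and 0, 0, 0 and 2.35 FPKM in exercise libraries. Control 1 was below exercise 4, so the groups overlapped (log2 fold change -3.89 ± 1.18, adjusted p = 0.0337, exact permutation p = 0.0571). From 2 exercise reads, the ratio of control to exercise was 269 (exact 95% interval 74.2 to 2220), with 172 without exercise 1 and 177 without exercise 2. The call was kept without control 1 or exercise 4 and lost without any other library (adjusted p of 0.0718 to 0.0950), and with exercise 1 and 2 averaged the adjusted p was 0.0809. Psme4, the activator linked to acetylated histones, stayed under the filter with at most 1.83 FPKM.

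**Figure D4:**
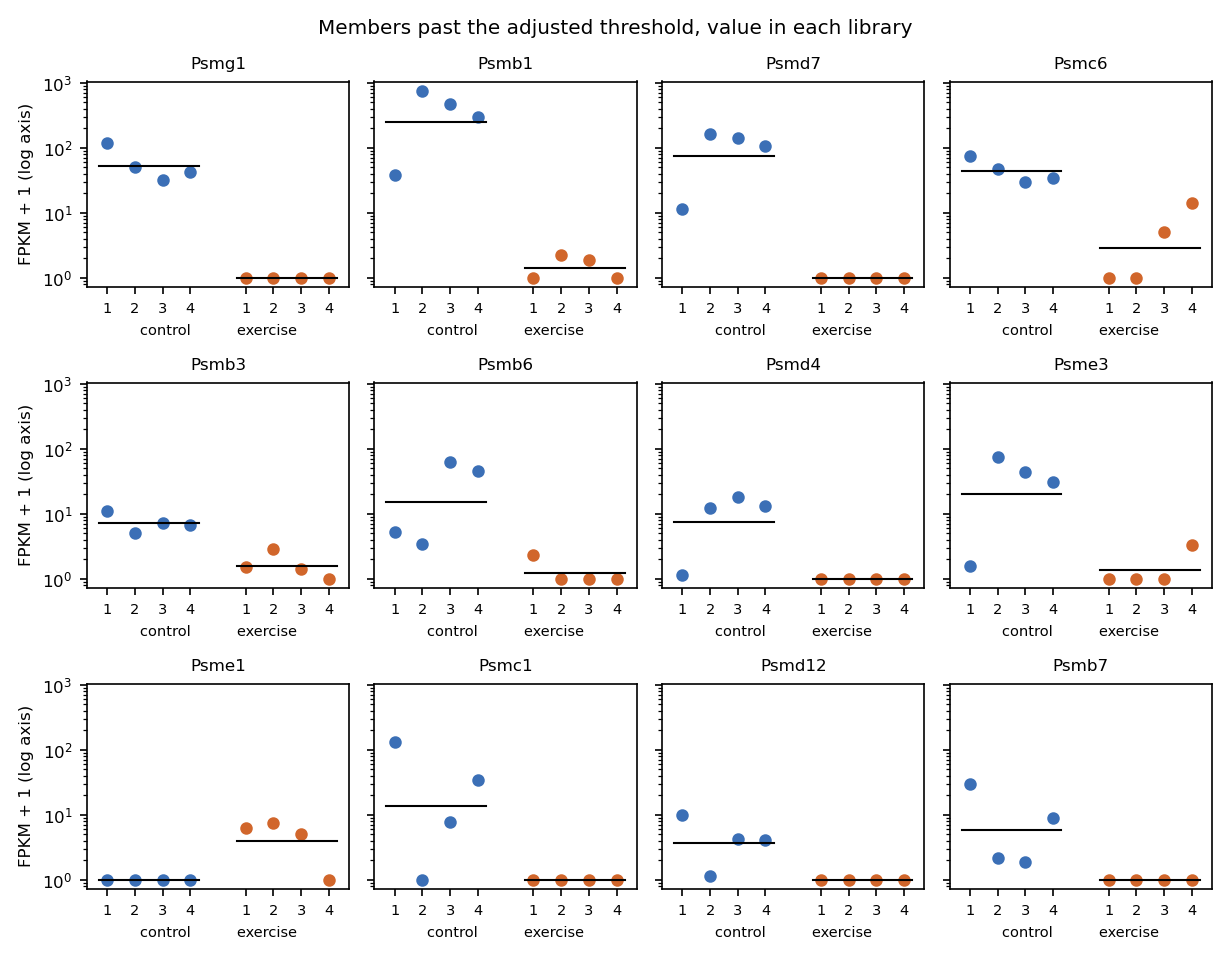
FPKM + 1 on a log axis in each of the 4 control (blue) and 4 exercise (orange) libraries for the 12 members with an adjusted p under 0.05. Horizontal lines are means of log2(FPKM + 1). Psmb1, Psmd7 and Psmg1 show the widest gaps between groups, while the groups overlap in Psmc1, Psme1 and Psme3.

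Members varied widely within the groups. Of the 34 tested, 19 spanned at least 10 times among the controls, or were at 0 in 1 control and at 10 FPKM or more in another. Values of 0 were found in at least 1 control for 10 of 34 and in at least 1 exercise library for 24 of 34. The highest control was control 1 for 15 members, control 2 for 10 and control 3 for 8, and control 4 was the highest for none of 33 with a control read. In control 4, 32 of 33 members lay between control 1 and control 3 in their share of reads. The weighted sum of these libraries came within 25% of control 4 for 29 of 33 members with at least 30 reads there, with a median ratio of 1.03. In exercise 3, 23 of 26 members lay between exercise 1 and exercise 4, and 9 of 11 with at least 30 reads were within 25% of the weighted sum. Exercise 1 and 2, in turn, differed by 0.663 to 1.69 times for the 13 members with at least 30 reads.

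**Figure D5:**
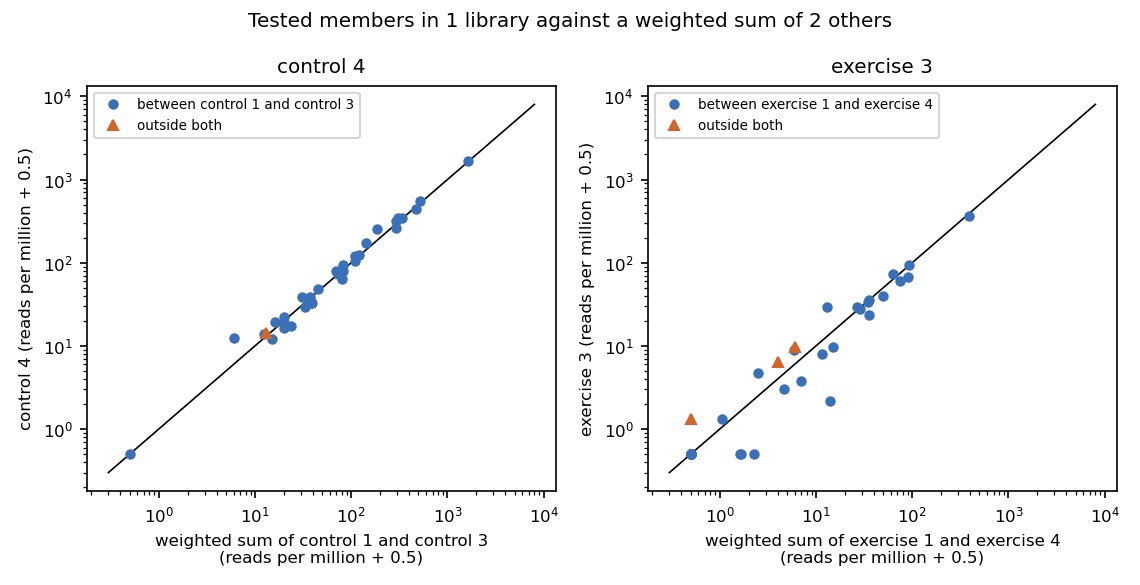
Read shares of the tested members in control 4 (left) and exercise 3 (right) against a weighted sum of 2 other libraries of the same group, on log axes with 0.5 added to each value. The line marks equal values, and triangles are members outside the range of both libraries. In the left panel 32 of 33 members lie within the range of control 1 and control 3, and in the right panel 23 of 26 lie within that of exercise 1 and exercise 4.

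Promoter sequences were taken from RefSeq (GRCm38.p6), as the 250 bases before each gene's start, and were found for 42 of 50 members. Proteasome genes are known targets of the transcription factor NRF1 (Nfe2l1), which binds antioxidant response elements. The element TGACNNNGC was found on either strand in 5 of 42 members (11.9%) and in 11.5% of 27025 genes. The ETS motif CCGGAAG was found in 13 of 42 members (31.0%) and in 7.83% of all genes, and the GC box GGGCGG in 22 (52.4%) and 35.4%. CCAAT was found in 15 members (35.7%, all genes 37.5%), TATAAA in 4 (9.52%, all genes 14.3%), the palindrome of nuclear respiratory factor 1, another protein than that of Nfe2l1, in 6 (14.3%, all genes 4.23%) and TGACTCA, which can overlap the first motif, in 1 (2.38%, all genes 5.16%). Of the 8 lower members with a promoter, 3 held TGACNNNGC and 6 held CCGGAAG. The lower members with TGACNNNGC are printed here, with Psmg1, whose adjusted p was the lowest, and Psme1, the 1 higher member, for comparison. Capitals mark TGACNNNGC and CCGGAAG on either strand.
Psmb6, chr11:70525107-70525356, plus strand: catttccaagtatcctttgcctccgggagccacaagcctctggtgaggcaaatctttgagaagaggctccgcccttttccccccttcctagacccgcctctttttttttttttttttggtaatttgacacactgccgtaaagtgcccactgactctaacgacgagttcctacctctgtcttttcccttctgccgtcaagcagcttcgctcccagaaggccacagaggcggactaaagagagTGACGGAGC
Psmc6, chr14:45329574-45329823, plus strand: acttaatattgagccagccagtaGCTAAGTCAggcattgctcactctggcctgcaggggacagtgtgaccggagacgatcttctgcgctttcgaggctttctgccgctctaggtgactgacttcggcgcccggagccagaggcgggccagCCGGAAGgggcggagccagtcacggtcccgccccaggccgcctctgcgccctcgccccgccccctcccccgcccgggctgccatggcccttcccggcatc
Psmd12, chr11:107479278-107479527, plus strand: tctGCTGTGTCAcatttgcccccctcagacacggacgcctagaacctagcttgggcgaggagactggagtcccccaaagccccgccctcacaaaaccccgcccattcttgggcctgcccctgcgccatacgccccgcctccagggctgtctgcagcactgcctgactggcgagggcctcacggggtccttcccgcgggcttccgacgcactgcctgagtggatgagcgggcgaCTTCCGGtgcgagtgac
Psmg1, chr16:95990961-95991210, minus strand: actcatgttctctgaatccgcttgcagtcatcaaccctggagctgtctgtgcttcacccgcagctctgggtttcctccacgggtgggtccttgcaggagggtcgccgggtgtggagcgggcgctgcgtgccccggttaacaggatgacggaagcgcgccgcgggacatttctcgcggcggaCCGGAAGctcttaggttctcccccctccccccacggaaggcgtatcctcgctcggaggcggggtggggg
Psme1, chr14:55578244-55578493, plus strand: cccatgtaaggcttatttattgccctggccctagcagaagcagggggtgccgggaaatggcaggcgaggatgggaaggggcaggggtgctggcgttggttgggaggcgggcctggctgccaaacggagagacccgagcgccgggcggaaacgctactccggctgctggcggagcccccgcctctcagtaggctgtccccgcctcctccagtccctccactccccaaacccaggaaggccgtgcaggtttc

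In these windows the ETS motif of Psmd12 began 17 bases before the start, that of Psmg1 69 bases and that of Psmc6 100 bases before it. The first base of TGACNNNGC lay 9 bases before the start in Psmb6, 227 in Psmc6 and 247 in Psmd12, and neither motif was found in the window of Psme1. The RefSeq start lies inside the gene as the table gives it for Psmd12 and Psme1, so the ETS motif of Psmd12 and the whole window of Psme1 lie inside those genes. A match of letters is not a binding site, and no motif was tested against the change of the genes.

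Genes that work with the proteasome were described from further lists, whose counts stand beside the 26.8% of all genes tested that were lower and the 8.78% that were higher. Of 9 partner genes outside the Psm names, 3 were tested and 1 was lower in exercise libraries. This was Usp14, a deubiquitinase that sits on the base (log2 fold change -2.78 ± 0.65, adjusted p = 0.0139), with 1.24, 12.0, 7.63 and 7.73 FPKM in controls and no read in exercise libraries. Of 8 genes of the NRF1 axis, 3 were tested and 1 was lower, the small Maf protein Maff (log2 fold change -3.58 ± 0.82, adjusted p = 0.0125). Nfe2l1 itself had at most 12 reads in a library and was not tested. Of 15 genes that bring substrates to the proteasome, 7 were tested and 2 were lower, Nploc4 (log2 fold change -2.24, adjusted p = 0.0419) and Nsfl1c (log2 fold change -1.96, adjusted p = 0.0233), both cofactors of the unfoldase Vcp. Of 11 genes of muscle ubiquitin ligases and FoxO factors, 3 were tested and 1 was lower, the ligase Fbxo40 (log2 fold change -4.78 ± 0.61, adjusted p = 0.0010), with 48.4, 27.8, 17.1 and 21.1 FPKM in controls and no read in exercise libraries. With exercise 1 and 2 averaged, Usp14, Maff and Fbxo40 were still past the test (adjusted p = 0.0496, 0.0348 and 0.0067), while Nploc4 and Nsfl1c were not (adjusted p = 0.0924 and 0.0689), and neither was Gbp2 (adjusted p = 0.0809). None of these 4 lists had a higher gene, and their medians were -1.28, 1.12, -1.59 and -0.02 on the log2 scale, with -1.42 over all genes tested.

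Some markers of other cell types passed the test as well, with the same shares over all genes. Of 12 SC markers, 3 were tested and Chodl was lower (log2 fold change -2.90, adjusted p = 0.0088). Cd34, a marker of the sort, had 0.1196, 0.627, 1.48 and 1.27 FPKM in controls and 7.55, 9.63, 3.09 and 1.90 FPKM in exercise libraries, all of them above every control, but did not pass the test (log2 fold change 1.68 ± 0.66, adjusted p = 0.0670). Sdc4 did not either (log2 fold change 1.81, adjusted p = 0.101). Of 14 myofibre markers, 12 were tested and Myh1, Myl1 and Mb were lower, with log2 fold changes of -2.75, -2.72 and -7.09. All 10 fibro-adipogenic markers had reads, 9 were tested, Lum was higher (2.02) and Col1a2 lower (-2.84), and the list summed to 1873 to 3197 FPKM in controls and 1585 to 2422 FPKM in exercise libraries. Of 8 endothelial markers 2 were tested, with Kdr lower (-7.82) and Tek higher (3.92), and Pecam1, Cdh5, Emcn and Cldn5 had no read in any library. The endothelial sum was 0.0925 FPKM in the lowest control and 2994 FPKM in the highest, and 4.42 to 26.2 FPKM in exercise libraries. Kdr had 0, 2994, 1669 and 1076 FPKM in controls, the order in which Psme2 and Psmb1 also stood there. Of 7 smooth muscle markers 3 were tested and Myh11 was higher (4.89), and of 8 tendon and Schwann markers 6 were tested, among them Scx, which was higher (5.05). Of 6 erythroid markers 2 were tested and neither was called, and none of 11 immune markers had a read. With exercise 1 and 2 averaged, Chodl, Myl1, Col1a2, Tek, Myh11 and Scx were still past the test, and Myh1, Mb, Lum and Kdr were not (adjusted p of 0.0622 to 0.0751). The part of these cell types in the values of the members was not tested.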

How the data were processed

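The authors aligned reads with Bowtie 0.12.9, computed FPKM with Cufflinks 2.1.1 and counted reads with HTSeq, as the methods and the submitters' processing notes give it, and the latter name the build mm10. They deposited 1 table of FPKM values for 52636 genes in the 8 libraries, and groups were taken from the sample titles. All values were whole multiples of 1 read within 0.001 of a read, so reads were recovered. The limit for a count of 0 was set at 3 reads. The library size in the values differed from the read total and was taken to be a median-of-ratios size factor, which was not tested. Rows sharing a symbol were summed. The test was limma (version 3.58.1 under R 4.3.3), with lmFit and a trended eBayes fitted to log2(FPKM + 1), for the 4328 genes whose mean reached 1 FPKM, and p-values were adjusted over these by Benjamini-Hochberg. The fit was tested on simulated data. For single members, an exact permutation test, two-sided, ran over the 70 assignments of libraries to groups. Python 3.11.15 with pandas 2.3.3 and scipy 1.17.1 was used for the rest.

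The members and lists (SC, myofibre, fibro-adipogenic, endothelial, immune, smooth muscle, erythroid, tendon and Schwann markers, proteasome partners, NRF1 axis, substrate delivery, muscle ligases, interferon genes) were chosen with earlier results of these data known. Values in every library are given for the catalytic subunits and their immune counterparts, for each member past the test, and for the 2 largest fold changes without a call in each of 4 subgroups, and other values were chosen after they were seen. Of a list, genes past the test are named, except 1 that is not reported here. Weights for control 4 and exercise 3 came from genes with at least 50 reads in 1 of the 2 libraries and none in the other. Shared 75-base stretches were counted over transcripts of the GRCm38 annotation. Alternatives were other pseudocounts, filters, scalings and weights, a replicate block, voom on the recovered reads, left-out libraries and averaged ones, and, chosen after seeing the data, an equal depth outside mitochondrial genes and a share of reads without Psme2 and Psme2b. The study's other assays were not analysed here.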

Additional observations from a re-analysis of the deposited data

Results flagged for a closer look

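In 9 of 68 groups of 4 libraries, 1 library stood far from the other 3, with a gap to its nearest neighbour above Dixon's 95% critical value. For normal values chance gives this in about 1 in 20 groups, which is 3.4 here, but the groups are not independent, since the libraries are the same for each gene. A group with reads in 1 library alone is always flagged and a group without reads never is. The number of 3.4 is therefore no yardstick for the 9 found.

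Control 1 was the low library in 4 of these, with log2(FPKM + 1) of 0.21 for the ubiquitin receptor Psmd4, 3.54 for the lid subunit Psmd7, 1.31 for the activator subunit Psme2 and 0 for its near-copy Psme2b. The other 3 controls were at 162, 143 and 106 FPKM for Psmd7. Control 4, which was close to a weighted sum of control 1 and control 3, was the nearest to control 1 for each of Psmd7, Psme2 and Psme2b.

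Exercise 4 stood apart with 5.12 for the alpha subunit Psma4 and 1.75 for the activator Psme3, where it was high, and with 0 for the base chaperone Psmd5. The limit of that count of 0 was 1.44 FPKM, above the Psmd5 values of the other exercise libraries, so exercise 4 was not shown to be low. Mitochondrial transcripts took 68.7% of its reads. Exercise 1 stood apart for the catalytic subunit Psmb6, at 1.19, and exercise 2 for the deubiquitinase Psmd14, at 0.29, in each case with no read in the other 3 exercise libraries, from 4 reads and 1 read. The limits of a count of 0 in exercise 4, 5.56 FPKM for Psmb6 and 3.69 FPKM for Psmd14, were above these values, so neither was shown to be high.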

How the results depend on the processing

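Of the gene-level values under the alternatives, 566 kept their direction and their side of the threshold, 94 lost the call, 42 gained one and 37 changed sign. The 12 members past the test kept their direction under every alternative, and Psmb1, Psmd7 and Psmg1 kept their call in 21 of 22, all but the fit with the fewest libraries. Exercise 4, at a size factor of 0.167, gave the highest limits for a count of 0.

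The number of lower members, 11, became 5 with no filter, 7 with a filter of 1 FPKM in 4 libraries, 4 with quantile normalization, 22 with array quality weights, 3 after averaging exercise 1 and 2, and 0 after also leaving out control 4 and exercise 3. Of all genes tested, 26.8% were lower, and this share was 6.71%, 29.9%, 8.66%, 49.98%, 9.80% and 0% in those 6 settings. The number of lower members was 3 to 12 with 1 library left out, at 5 without control 3, 4 without control 4, exercise 2 or exercise 3, and 3 without exercise 1, while 8.39% to 34.9% of all genes were lower. The number of higher members, 1, became 0 with no filter, with the filter in 4 libraries, with no variance trend, with the replicate block and in both fits with averaged libraries, 3 with quantile normalization and 4 with array quality weights, and was 0 to 2 with 1 library left out. The share of all genes higher, 8.78%, was 2.59%, 12.1%, 8.29%, 6.24%, 4.14%, 0%, 13.1% and 18.8% in these settings in that order, and 3.77% to 12.9% with 1 library left out. For tested members the median log2 fold change, -2.23, was -1.12 with quantile normalization and -3.13 with voom on the recovered reads, and -2.40 to -1.84 with 1 library left out. The median of all genes tested, -1.42, was -0.44, -1.69, -1.60 and -2.22 with quantile normalization, a constant FPKM sum, the read total as library size and voom. It was -0.32 with no filter, -0.80 with the filter in 4 libraries, -2.59 with a pseudocount of 0.1 and -1.17 with array quality weights, where that of the members was -1.85, -2.19, -2.92 and -1.92. The cause of these shifts was not tested.

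With the replicate number as a block, 8 members were lower and 0 were higher, with 18.2% of all genes lower and 6.24% higher. The deviations of libraries with the same number had correlations of -0.0169 to 0.0393, so the numbers did not pair the libraries.

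The following members, none of them past the test in the report, changed sign. With a pseudocount of 0.1 the log2 fold change was -0.74 for Psma2, -0.0873 for Psma3, -0.028 for Psma4, -0.0208 for Psmd11 and -0.13 for Psmd2. With a constant FPKM sum it was -0.21 for Psma2, -0.62 for Psma4, -0.32 for Psmd11 and -0.35 for Psmd2, and without mitochondrial genes in that sum -0.0418 for Psma4. With the read total as library size it was -0.45 for Psma4, -0.15 for Psmd11 and -0.17 for Psmd2, and with quantile normalization 0.0388 for Psma7 and 1.09 for Psmc4. Array quality weights gave -2.40 for Psma2, -0.40 for Psma4 and -1.98 for Psmd2, and voom gave -1.34 for Psma2, -0.00022 for Psma3, -0.46 for Psmd11 and -0.42 for Psmd2. After averaging exercise 1 and 2, Psmd11 had -0.21, and after also leaving out control 4 and exercise 3, Psma3 had -0.35 and Psmd11 -0.40. With 1 library left out, the range was -1.002 to 2.095 for Psma2, -1.09 to 0.76 for Psma4, -0.60 to 1.14 for Psmc2, -0.68 to 1.23 for Psmd2 and -0.23 to 0.44 for Psmd11.

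The mean number of members with a read was lower by 13.5 in exercise libraries, and the difference was -12.0 at equal total reads, -11.7 at equal reads outside mitochondrial genes and -16.3 with at least 3 reads asked for. The difference in the share of reads was -0.443 percentage points over all reads and -0.438 outside mitochondrial genes, and it became -0.202 outside them without Psme2 and Psme2b. The depth outside mitochondrial genes and the share without these 2 genes were chosen after seeing the data.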

Other observations

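Among genes that act upstream of the proteasome, Ddi2, the protease that cleaves and so activates NRF1, had 0.685, 0, 0.134 and 0.236 FPKM in controls 1 to 4 and 0.0626, 0.0656, 11.4 and 69.7 FPKM in exercise 1 to 4. It was thus high in exercise 3 and 4 alone, the libraries in which the alpha subunit Psma2 was also high, and did not pass the test (log2 fold change 2.18 ± 1.26, adjusted p = 0.173). Nfe2l2, a relative of NRF1 that binds the same element, had 0.804, 33.98, 16.5 and 12.9 FPKM in controls and 34.7, 37.8, 19.96 and 11.0 FPKM in exercise libraries, with only control 1 apart from the rest (adjusted p = 0.353). Pomp, a chaperone that guides the beta subunits into the barrel, had reads only in control 3 and control 4, at 7.71 and 3.03 FPKM (log2 fold change -1.28 ± 0.71, adjusted p = 0.156). These 3 genes were picked after their values were seen.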
